A study of Mus musculus with 10 samples.

Results

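The proteasome genes described here were the genes whose names matched the Psma to Psmg series (Psm, a letter from a to g, and a number) and whose mean RPKM over both WT inputs was at least 1. Of 30419 genes in the window files, 49 names matched and 47 passed, among 11306 genes that passed the same RPKM minimum. The names left out were Psmb11, the thymus subunit, at a mean of 0.0066 RPKM, and Psmb8, an immunoproteasome subunit, at 0.155. The members nearest the minimum were Psmb9 at 1.49, Psmd9 at 4.41 and Psmb10 at 4.58. Psmc3ip entered by its name alone: its product is a partner in meiotic recombination and is not a proteasome subunit.

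The proteasome is the protease that degrades proteins tagged with ubiquitin. Its 20S core is a barrel of alpha rings, which gate the entry, around beta rings, which hold the cutting sites, and the 19S cap binds, deubiquitinates and unfolds the substrate through a base with ATPases and a lid. Dedicated chaperones build both parts, and activators such as the PA28 proteins can take the place of the cap. N6-methyladenosine (m6A) is a methyl mark on messenger RNA, placed mainly by an enzyme whose catalytic subunit is Mettl3, most often in long exons and near stop codons, and known to speed the decay of many transcripts.

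RNA of the mouse embryonic stem cell line J1 was fragmented, and part of it was pulled down with an antibody to m6A (IP) while the rest served as input. There were 10 libraries: a first input and a first IP with no genotype given, then 2 inputs and 2 IPs labelled mettl3 WT, and 2 inputs and 2 IPs labelled mettl3 KO. All came from cells described as grown without feeders. The growth text shared by all libraries also mentions differentiation without LIF, and no label names a library as differentiated; the number of KO clones, the altered part of Mettl3 and whether replicates were separate cultures are not stated in the labels, so the p-values cover nothing beyond the spread between libraries, which may be technical.

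The libraries fitted their labelled cell type by marker levels. Summed input coverage of 8 stem cell markers was 2681 and 2759 in WT against 2126 and 1994 in KO, with 2210 in the first input. That of 7 fibroblast markers lay between 2.43 and 8.72, and Col3a1, Dcn, Postn and Lum among them were under 0.1 everywhere. The 3 neuroectoderm markers summed to 2.23 and 1.80 in WT against 3.81 and 3.13 in KO, with 7.93 in the first input. The 3 mesoderm markers summed to 0.276 and 0.291 in WT against 0.587 and 0.481 in KO, with 1.11 in the first input. The 4 endoderm markers summed to 0.554 and 0.774 in WT against 0.255 and 0.430 in KO, with 2.28 in the first input. By these sums stem cell and endoderm markers were lower in both KO inputs than in both WT inputs. Neuroectoderm and mesoderm markers were higher in KO by sum. The first input had the highest sum of all inputs for endoderm, mesoderm and neuroectoderm. A sum does not show how each gene moved. Mettl3 itself, at 4.79 and 4.67 in WT, was at 3.14 and 3.38 in KO (12.9 in the first input), a fall of 0.43 on the log2 scale (limma adjusted p = 0.00259) without being lost. The WT and KO IPs had relative depths of 0.0606 to 0.159 with the first IP set to 1, and their inputs 0.284 to 0.516 with the first input set to 1.

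Proteasome transcripts were abundant. Input coverage is the mean of the authors' scaled signal over a gene's exon windows, so it is per length and genes can be set side by side. Members had a median WT coverage of 39.4, from 1.1 to 114, and a median RPKM of 55.5 in WT against 6.57 for the other expressed genes. As each value comes from bulk RNA, fewer cells with a transcript and less of it per cell cannot be told apart.

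Among the 20S genes, the beta ring was the highest role, with a median WT coverage of 81.0 over 7 members, and the alpha ring followed with 59.7 over 8. Psmb1, a structural beta subunit, was the highest member, with 117 and 111 in WT, 109.6 and 145 in KO, with 59.2 in the first input. The lowest gene of the beta ring was Psmb2, at 55.5 and 63.9 in WT, 57.6 and 75.2 in KO, with 76.5 in the first input. Neither gene separated WT from KO.

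In the alpha ring Psma6 was highest, at 87.4 and 90.3 in WT, 87.2 and 90.2 in KO, with 86.8 in the first input. Psma8, the alpha subunit of the testis proteasome, was lowest, at 4.86 and 5.84 in WT, 4.85 and 4.77 in KO, with 5.77 in the first input. The inducible subunits of the immunoproteasome were lower still: Psmb10 had 3.87 in both WT inputs, 4.21 and 4.87 in KO, with 7.80 in the first input. Psmb9 had 1.22 and 0.968 in WT, 1.08 and 1.07 in KO, with 1.61 in the first input. These cells thus held far more transcript of the constitutive beta subunits than of the inducible ones.

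The 19S genes lay close together, with median WT coverages of 41.4 for the 6 ATPases, 43.9 for the 3 base subunits without ATPase activity and 41.8 for the 8 lid subunits. Among ATPases the range ran from Psmc2, at 32.3 and 31.4 in WT, 30.7 and 32.2 in KO, with 41.3 in the first input, to Psmc6, described below. In the base, Psmd1, a large scaffold, had 41.1 and 42.8 in WT, 39.7 and 38.7 in KO, with 51.1 in the first input. Psmd2, the other large scaffold, had 48.2 and 47.5 in WT, 42.5 and 43.9 in KO, with 47.2 in the first input. Neither scaffold's difference between WT and KO passed limma's test (adjusted p = 0.290 for Psmd1 and 0.111 for Psmd2).

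In the lid, Psmd7, the inactive partner of the deubiquitinase Psmd14, was highest, at 61.7 in both WT inputs, 62.3 and 62.8 in KO, with 81.0 in the first input. Psmd3 was lowest in WT, at 32.8 and 32.5, with 32.1 and 28.5 in KO, with 79.8 in the first input. The first input was thus 2.44 times the WT mean for Psmd3, a gap between inputs larger than any between WT and KO among the members.

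Genes of assembly and regulation had lower median WT coverage than the alpha ring, beta ring and 19S roles, at 17.9 for 7 chaperones and 19.5 for 4 activators. Single genes overlapped: the activator Psme3 had a WT mean of 34.9, against 32.6 for the lid subunit Psmd3. Of the chaperones, Psmg2, which starts the alpha ring, was highest, at 24.0 and 23.7 in WT, 26.1 and 30.4 in KO, with 24.6 in the first input. Psmd9, a chaperone of the base, was lowest, at 3.73 and 3.79 in WT, 3.55 and 3.65 in KO, with 5.26 in the first input. The differences of Psmg2 (limma adjusted p = 0.0530) and Psmd9 did not pass limma's test.

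The activator Psme2, a PA28 subunit, had 3.64 and 3.75 in WT, 2.70 and 3.78 in KO, with 1.88 in the first input. Psmf1, the inhibitor PI31, had 4.07 and 4.32 in WT, 4.42 and 4.55 in KO, with 10.3 in the first input. Psmc3ip had 9.83 and 9.26 in WT, 11.3 and 10.7 in KO, with 15.4 in the first input.

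Psma3 and Psma5, both subunits of the alpha ring, stood apart in the first input. Psma3 had 3.47 there against 37.3 and 40.9 in WT against 40.1 and 48.6 in KO. Psma5 had 3.92 against 38.0 and 40.8 in WT against 39.4 and 43.8 in KO. Their WT means were 11.2 and 10.1 times the first input, while the other alpha genes lay within 2.00 times; the treatment of reads with several positions is not given for all files, and its part in this gap was not tested.

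**Figure D1:**
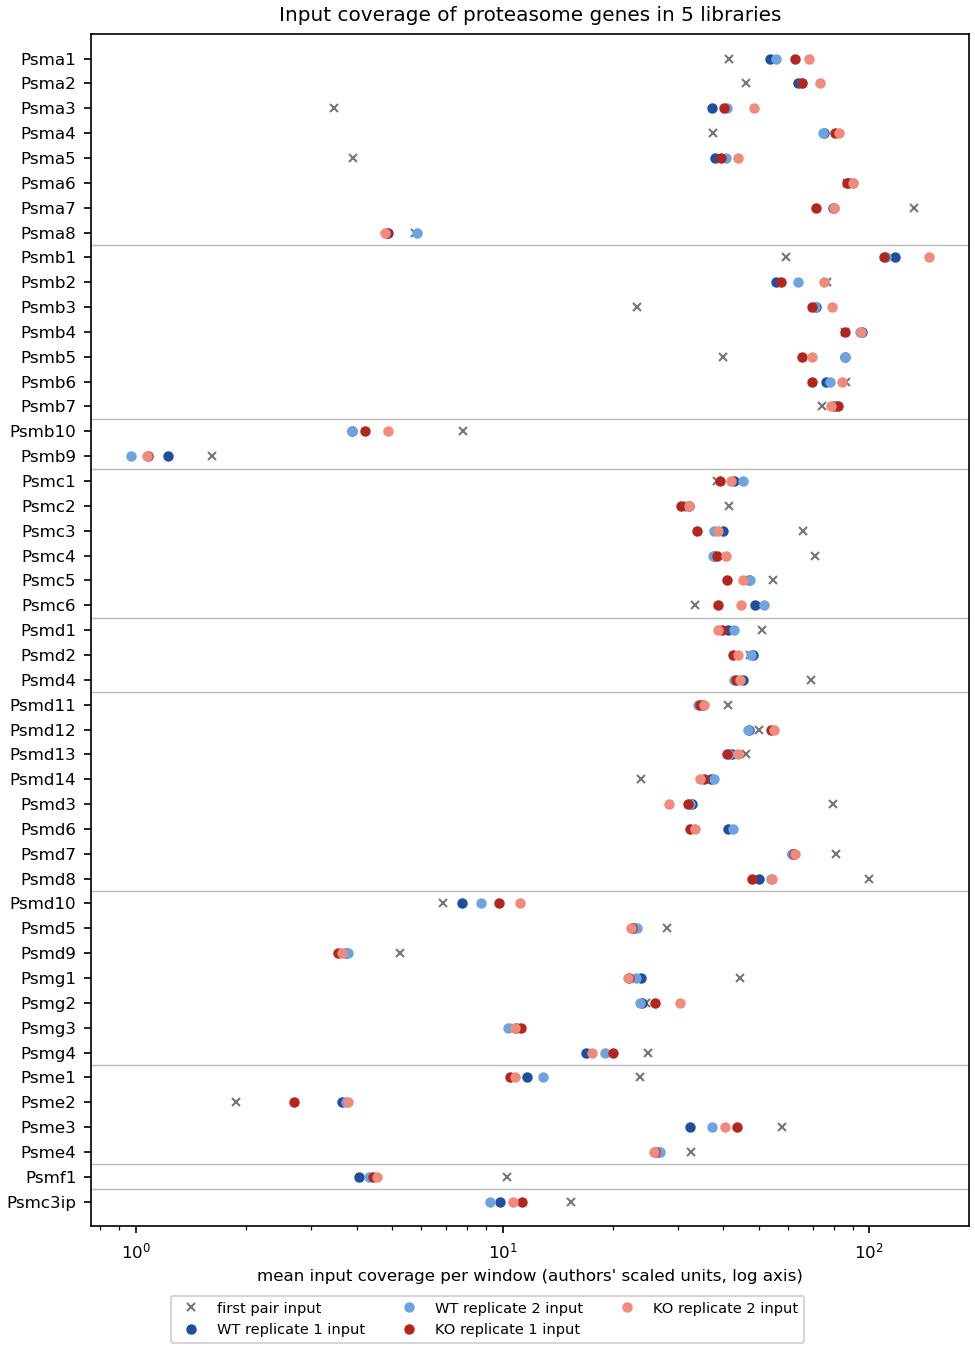
Mean input coverage per window in the authors' scaled units (x axis, log scale) for 47 members (y axis), grouped by role from the alpha ring at the top to the inhibitor and the name match Psmc3ip; crosses are the first input and dots the WT (blue) and KO (red) replicates. WT and KO dots lie close together for most genes, while the crosses of Psma3 and Psma5 sit at 3.47 and 3.92, far left of their dots.

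The KO and WT inputs were compared to ask whether loss of Mettl3 came with other levels of these transcripts. All 47 members were tested and most did not pass: 4 rose and 3 fell in KO, and 40 passed in neither direction. Over all 11211 genes tested 13.0% rose and 13.6% fell, 26.6% in all, so the 7 members called were not a larger share than among genes at large. The median KO minus WT difference was −0.0071 on the log2(coverage + 1) scale, with 26 members lower, against −0.0048 over all genes. Sizes were small as well: the median absolute difference was 0.094 against 0.134 over all genes, and the largest was 0.34, or 1.26-fold. The test was limma's moderated test on 2 against 2 inputs, adjusted by Benjamini-Hochberg over all genes.

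The genes that fell belonged to 3 different parts of the complex. Psmb5, the beta subunit with chymotrypsin-like activity and the main target of bortezomib, had 85.7 and 85.8 in WT, 65.4 and 69.9 in KO, with 39.9 in the first input. It fell by 0.34 (SE 0.066, limma adjusted p = 0.00552), the KO mean being 78.9% of the WT mean, and both KO inputs lay below both WT inputs. A microRNA gene, Mir686, overlaps Psmb5 in the RefSeq annotation.

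Psmd6, a lid subunit of the PCI family, had 41.2 and 42.4 in WT, 32.3 and 33.6 in KO, with 32.8 in the first input. It fell by 0.33 (SE 0.062, limma adjusted p = 0.00444), to 78.8% of the WT mean. Psmc6, a base ATPase, had 48.8 and 51.6 in WT, 38.6 and 44.7 in KO, with 33.4 in the first input. Its fall of 0.27 (SE 0.079, limma adjusted p = 0.0326) was the least sure of these, at −0.16 without KO replicate 1 and −0.37 without KO replicate 2.

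The genes that rose were spread over the core, the lid, a chaperone and an activator. Psma1, an alpha subunit, had 53.6 and 55.8 in WT, 62.8 and 68.6 in KO, with 41.5 in the first input, a rise of 0.26 (SE 0.069, limma adjusted p = 0.0222). Psmd12, a lid subunit, had 47.0 and 46.7 in WT, 53.8 and 55.1 in KO, with 50.0 in the first input, a rise of 0.21 (SE 0.061, limma adjusted p = 0.0306). In both genes the KO inputs lay above the WT inputs.

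Psmd10, or gankyrin, a chaperone of the base ATPases, had 7.72 and 8.72 in WT, 9.80 and 11.1 in KO, with 6.86 in the first input. It rose by 0.31 (SE 0.082, limma adjusted p = 0.0212), to 127% of the WT mean, and the gene overlaps Atg4a in the RefSeq annotation. Psme3, the nuclear activator PA28 gamma, had 32.5 and 37.3 in WT, 43.5 and 40.4 in KO, with 57.9 in the first input. It rose by 0.26 (SE 0.078, limma adjusted p = 0.0357), and the WT inputs did not overlap the KO inputs; the difference was 0.16 without WT replicate 1 and 0.36 without WT replicate 2. None of the 7 changed genes had a region in the first IP, where 9 of 47 members did. All of them but Psmb5 had one in the map of the WT IPs, where 32 of 47 members did.

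Single libraries decided several of these calls. Without WT replicate 1 none of Psma1, Psmd12, Psmd10 and Psme3 passed and 3 members remained called. Psmd12 and Psmc6 were lost without WT replicate 2, Psmc6 and Psme3 without KO replicate 1 (10 members then called), and Psma1, Psmd12 and Psmd10 without KO replicate 2. Psmb5 and Psmd6 passed in each of these fits. Of all genes, 15.5% were called when WT replicate 1 was left out and 17.2% when WT replicate 2 was; for KO replicates 1 and 2 the shares were 28.0% and 21.3%. Without the filter on low coverage, Psmd6 alone passed, with 3.49% of all genes called. With the deposited median coverage per gene Psma1, Psmd10 and Psmd6 passed, with 11.7% called. The summed stem cell, endoderm, neuroectoderm and mesoderm markers differed between WT and KO in the same inputs, and their part in these differences was not tested.

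**Figure D2:**
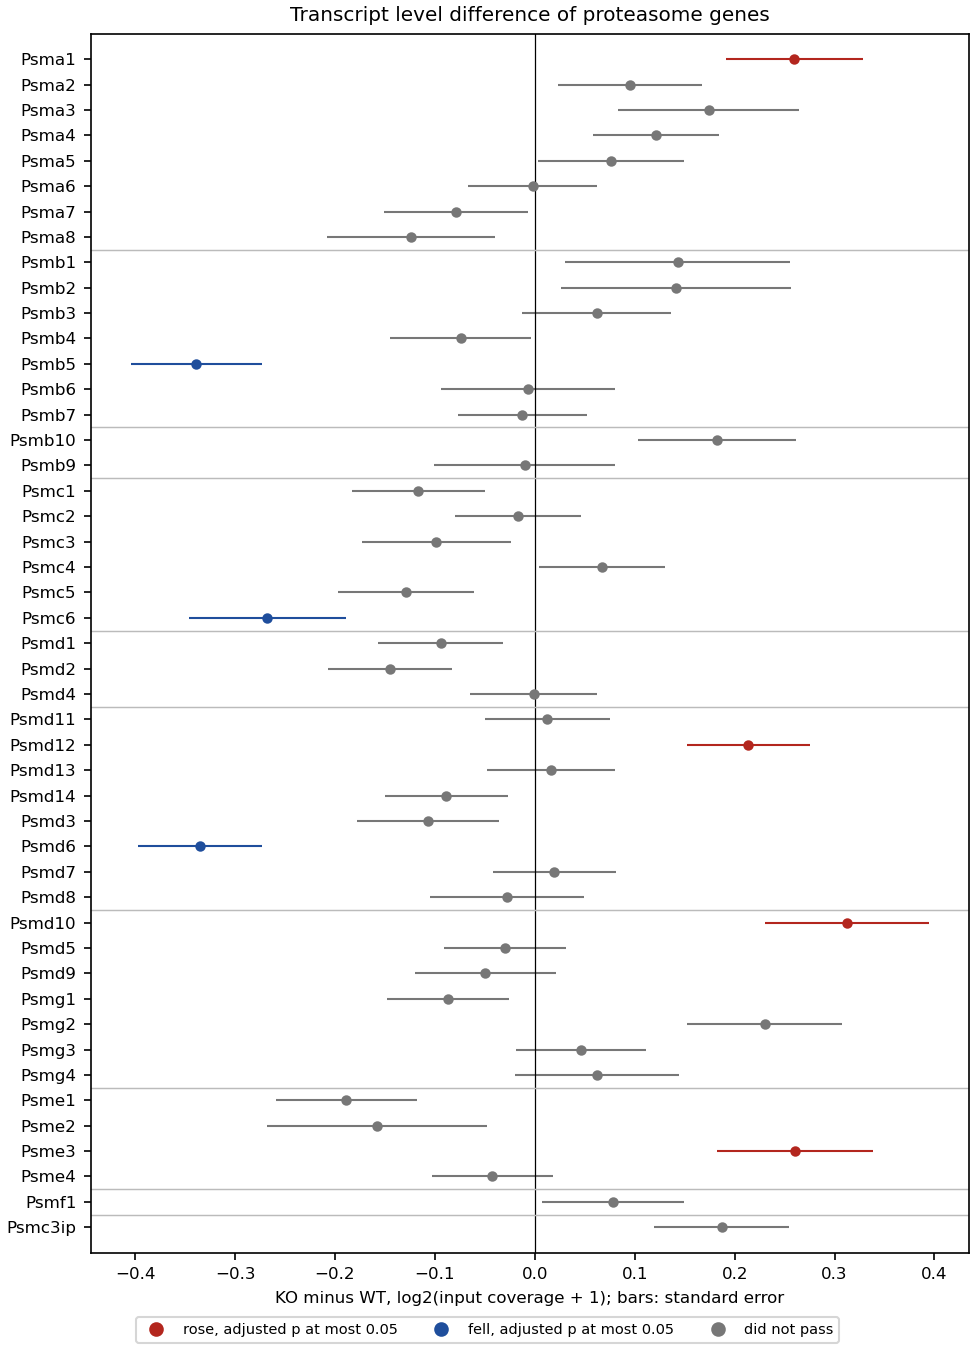
KO minus WT difference in log2(input coverage + 1) (x axis) for 47 members (y axis, grouped by role as labelled by gene); dots are limma estimates from 2 WT and 2 KO inputs and bars their standard errors. Red marks the 4 members that rose and blue the 3 that fell, and all estimates lie within 0.34 of 0.

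The deposited RPKM table gave another picture. Across genes, the columns named for the KO inputs ran with the coverage of the KO IPs, with Pearson r of 0.956 and 0.973 against 0.713 and 0.737 for the KO inputs, whereas the WT columns followed the WT inputs at 0.995. Psmd7, for example, is listed at 71.2 and 71.1 RPKM in WT and at 425 and 483 in the columns labelled KO, while its input coverage was 61.7 in both WT inputs and 62.3 and 62.8 in KO. With these columns 5 members would be called higher and 28 lower, with 40.9% and 24.1% of 12245 genes called in those directions (65.0% in all), and Psma1 would turn from a rise of 0.26 to a value of −1.55. For that reason levels in KO are given from input coverage only.

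Promoter sequence is shown for the 3 genes that fell and for Psmd2, whose first exon held the member region with the highest KO minus WT ratio, described below. The bases before the RefSeq transcription start of each gene follow, 5′ to 3′ on the gene's strand, in RefSeq build GRCm38.p6. Capitals mark TTCCGG or its reverse complement CCGGAA, the core of ETS family sites, and TGACNNNGC or its reverse complement, the core of antioxidant response elements, which the proteasome activator Nfe2l1 is known to bind. Psmb5 lies at chr14:54617996-54618245 (minus strand), Psmd6 at chr14:14120946-14121195 (minus), Psmc6 at chr14:45329574-45329823 (plus) and Psmd2 at chr16:20651402-20651651 (plus).
Psmb5: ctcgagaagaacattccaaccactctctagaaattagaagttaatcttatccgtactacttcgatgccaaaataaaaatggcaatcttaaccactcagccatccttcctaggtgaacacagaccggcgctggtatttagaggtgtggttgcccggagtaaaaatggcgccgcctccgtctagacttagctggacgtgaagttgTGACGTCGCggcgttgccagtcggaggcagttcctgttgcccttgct
Psmd6: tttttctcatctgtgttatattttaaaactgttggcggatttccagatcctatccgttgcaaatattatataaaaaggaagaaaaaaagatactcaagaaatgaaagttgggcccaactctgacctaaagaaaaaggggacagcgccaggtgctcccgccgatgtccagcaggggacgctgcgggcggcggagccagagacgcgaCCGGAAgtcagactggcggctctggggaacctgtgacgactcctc
Psmc6: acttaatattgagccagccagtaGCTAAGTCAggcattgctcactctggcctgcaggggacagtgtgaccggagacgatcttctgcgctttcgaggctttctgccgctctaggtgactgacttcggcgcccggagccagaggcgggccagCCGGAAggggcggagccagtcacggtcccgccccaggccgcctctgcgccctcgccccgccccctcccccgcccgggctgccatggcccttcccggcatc
Psmd2: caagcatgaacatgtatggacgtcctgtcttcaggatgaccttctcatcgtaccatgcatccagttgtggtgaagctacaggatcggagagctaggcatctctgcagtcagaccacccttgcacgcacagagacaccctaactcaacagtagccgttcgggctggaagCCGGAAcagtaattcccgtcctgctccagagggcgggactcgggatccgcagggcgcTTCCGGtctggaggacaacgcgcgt
Psmb5 held 1 TGACNNNGC match and no TTCCGG, Psmd6 held 1 TTCCGG match, Psmc6 held 1 of each, and Psmd2 held 2 TTCCGG matches on opposite strands.

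Over all members with a promoter entry, 39 of 47, TTCCGG was in 18 (46.2%), against 27.7% of 7816 expressed genes and 13.6% of 27025 genes. TGACNNNGC was in 5 (12.8%), namely Psmb5, Psmb6, Psmc6, Psmd12 and Psmd9, against 14.2% of expressed genes. Among genes with a changed level, TTCCGG was in 3 of 4 that rose and 2 of 3 that fell, and TGACNNNGC in 1 of 4 and 2 of 3. In all, 8 motifs were searched on both strands of the 250 bases before the start. CCAAT was in 14 members (35.9%) against 42.0% of expressed genes, and TGANNNNGC, which contains every TGACNNNGC match, in 16 (41.0%) against 41.7%. TGACTCA was in Psmd9 alone (3.58% of expressed genes). TGACTCAGC (0.409%), which holds TGACTCA and a TGACNNNGC match, TGACGTCA (3.43%) and GCCATNTTG (2.37%) were in none. Psmc3, Psmb7, Psmb2, Psmd7, Psmd3, Psmb1, Psmg2 and Psma8 had no entry. A match is a description of these letters and does not show binding.

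Regions of m6A enrichment were then placed on the members. The authors' winscore is the log2 enrichment of a window's IP over its input, each relative to the gene's own median. In it 1 is added to each coverage value and median, so a window with no coverage can score above 0. A region was a run of at least 2 windows with a winscore of 2 or more in the first IP. By this rule 9 of 47 members (19.1%) carried a region, 1 each, against 54.3% of 11306 expressed genes. They were the lid genes Psmd7, Psmd8 and Psmd11, the chaperones Psmd5 and Psmg3, the alpha gene Psma4, the ATPase Psmc5, the base scaffold Psmd2 and the inhibitor Psmf1. None of the 7 beta ring genes, 2 immunoproteasome genes and 4 activators had one in the first IP. In the map of the WT IPs, described below, Psmb1, Psmb3 and Psmb4 of the beta ring had regions. So did the activators Psme1, Psme3 and Psme4.

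Members were also short. They held a median of 31 windows, from 12 to 152, against 58 in the other expressed genes, and longer genes carried regions more often: 7.45% of expressed genes with 1 to 19 windows, 33.6% with 20 to 39, 57.9% with 40 to 79 and 77.4% with 80 or more. In the same classes 1 of 4, 4 of 32, 4 of 10 and 0 of 1 members had a region. The part of length in the low share was not tested beyond these values. The 9 members with a region had a median of 35 windows.

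The count depended on the library and the limit used. In the mean of the WT IPs 32 of 47 members (68.1%) had a region, 57 in all, against 82.9% of expressed genes. In single libraries the numbers were 30 and 38 members in WT against 40 and 39 in KO, with 80.3, 88.2, 89.5 and 88.1% of expressed genes, so KO libraries did not map fewer members. Empty windows accounted for 50.5 and 65.4% in the WT IPs, against 74.3 and 67.6% in the KO IPs, and their part in these counts was not tested.

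Most regions of the first IP lay in the last exon. The files number exons in genomic order, so the end of a gene was set by the RefSeq strand, known for 39 members. Of the 9 member regions 6 were in the last exon, 1 in the first exon (Psmd2), 1 internal (Psmc5) and 1 in a gene with no strand (Psmd7), while 52.0% of regions of all genes were in a last exon and 4.70% in a first exon. In the map of the WT IPs 20 of 57 member regions (35.1%) were in a last exon and 17 (29.8%) in a first exon, against 45.0 and 10.1% over all genes.

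Psmd5, a chaperone of the base ATPases, had the highest region winscore of the members in the first IP. Its mean winscore was 3.86 in the first IP, 5.09 and 7.30 in WT against 6.52 and 4.21 in KO. In the last exon window that was highest in the WT and KO IPs, IP coverage was 878 and 857 in WT against 528 and 577 in KO, with input coverage of 47.2 and 34.1 in WT against 47.3 and 57.1 in KO. IP coverage in that window was thus lower in KO, while the winscores overlapped between groups. Single windows given here and for the regions below were picked within the region by the WT IPs, which favours a higher WT value. The gene's median IP coverage, which the winscore divides by, was 4.54 and 0.526 in WT against 0 and 4.55 in KO.

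Psmd8, a lid subunit, had the lowest KO minus WT ratio among the member regions. Its last exon region had winscores of 2.93 in the first IP, 3.88 and 3.58 in WT against 2.87 and 2.07 in KO. In the window that was highest in WT, IP coverage was 688 and 727 in WT against 97.5 and 136 in KO, with input coverage of 66.4 and 81.7 in WT against 63.0 and 65.5 in KO. Over the region the WT mean was 4.84 times the KO mean, and the groups were far apart in IP and overlapped in input.

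Psmg3, a chaperone of alpha ring assembly, differed in the same direction at a lower level. Its winscores were 2.33 in the first IP, 2.90 and 3.02 in WT against 1.88 and 1.5 in KO, and its region mean of IP coverage was 56.6 and 58.3 in WT against 21.9 and 30.7 in KO. It was the only member region at 2 or more in both WT IPs and under 2 in both KO IPs.

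Psma4, an alpha subunit, had one of the highest IP signals. Its last exon region had winscores of 2.43 in the first IP, 5.08 and 4.94 in WT against 4.23 and 5.37 in KO, and the window that was highest in WT had IP coverage of 1686 and 1748 in WT against 1171 and 1609 in KO. Psmd11, a lid subunit, had winscores of 2.48 in the first IP, 3.81 and 4.63 in WT against 3.06 and 4.06 in KO. For both genes the KO winscores overlapped those of WT, and RefSeq places the gene AY074887 across Psma4.

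Psmf1, the inhibitor, had winscores of 2.71 in the first IP, 2.24 and 2.40 in WT against 3.04 and 3.02 in KO. Its IP coverage over the region was low, at 9.84 and 7.48 in WT against 5.78 and 8.49 in KO. The winscore was higher and the mean IP coverage lower in KO, and the gene's median IP coverage was 1.11 and 0.394 in WT and 0 in both KO IPs. Window 1 of its last exon, with 0 coverage in IP and input of KO replicate 1, had a winscore of 1.70. Tmem74b overlaps Psmf1 in the annotation.

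Psmd7 held the strongest mean IP signal of the 9 regions in the first IP and in WT, in the exon the files number first. Over the region of the first IP winscores were 3.66 in the first IP, 1.82 and 2.50 in WT against 1.37 and 1.88 in KO, and in the window that was highest in the first IP and in WT, IP coverage was 2979 in the first IP, 1740 and 1898 in WT against 1128 and 1192 in KO. The map of the WT IPs placed 3 regions in this exon, which did not move alike. Windows 6 to 8 had mean IP coverage of 1361 and 1490 in WT against 843 and 902 in KO. Windows 11 to 13 had 976 and 1215 in WT against 1394 and 1871 in KO. Windows 17 to 19 had 828 and 908 in WT against 660 and 783 in KO. Signal was therefore lower in KO in the outer stretches and higher in the middle stretch, whose winscore in the first IP was 0.0169; as the WT IPs chose these stretches, they carry no test.

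Psmc5, a base ATPase, was the weakest. The region in its second exon had a winscore of 2.19 in the first IP and only 0.373 and 0.10 in WT against 0.662 and 1.51 in KO, so it was not held in any later library. An snRNA gene, Gm23645, overlaps Psmc5 in RefSeq.

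Psmd2 stood apart from the others. The region in its first exon had winscores of 2.23 in the first IP, 4.55 and 5.18 in WT against 8.42 and 6.67 in KO. In its second window IP coverage was 145 and 124 in WT against 839.7 and 633 in KO, with input coverage of 29.3 and 24.6 in WT against 19.5 and 29.7 in KO. Over the region the KO mean of IP coverage was 5.64 times the WT mean, both KO IPs lay above both WT IPs, and the inputs overlapped.

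**Figure D3:**
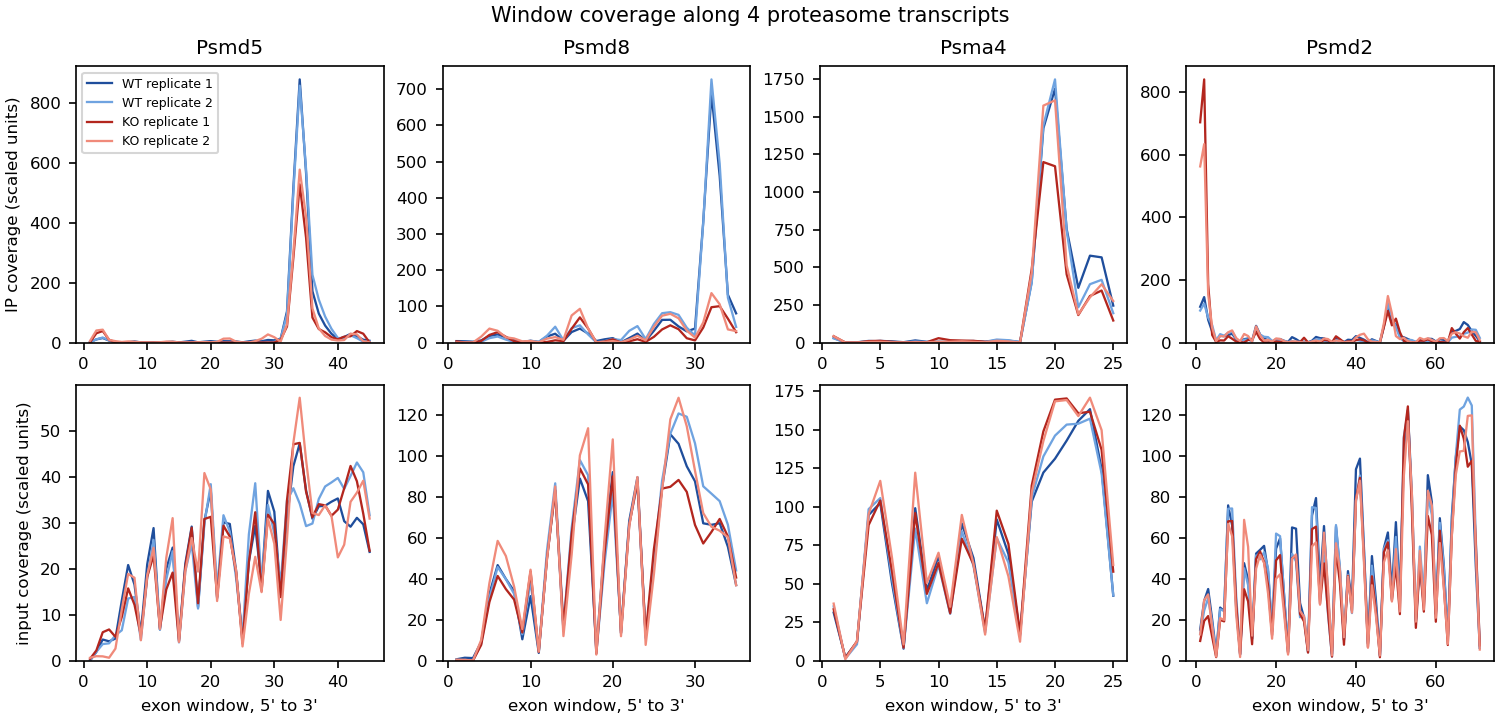
IP coverage (top) and input coverage (bottom), in the authors' scaled units on linear axes, along the exon windows of Psmd5, Psmd8, Psma4 and Psmd2 from 5′ to 3′; each line is 1 library, blue for WT and red for KO. Psmd8 peaks at 688 and 727 in WT and stays at 97.5 and 136 there in KO. The first exon of Psmd2 reaches 839.7 and 633 in KO and 145 and 124 in WT. These windows were picked by the WT IPs, which favours a higher WT value.

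Of the 9 member regions, 7 were at a winscore of 2 or more in both WT IPs and 6 in both KO IPs, against 87.0 and 74.9% of all 10181 regions. With limma no member region passed in winscore (0 of 10181 regions passed, 0% called; 842 had an unadjusted p under 0.05, among them 1 of a member). The log2 ratio of IP to input, which does not divide by the gene's median, gave 0 calls among 9603 regions as well (0% called; 1601 with an unadjusted p under 0.05, 3 of them of members). By this ratio 7 of 9 member regions were lower in KO, as were 77.8% of all regions, with medians of −0.67 and −0.45.

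The largest ratio differences were in Psmd2, 2.61 higher in KO (SE 0.37, limma adjusted p = 0.271), and in Psmd8, which was lower with a difference of −2.22 (SE 0.47, limma adjusted p = 0.271). Psmg3 followed with −1.33 (SE 0.58, limma adjusted p = 0.314) and Psmd5 with −0.95 (SE 0.32, limma adjusted p = 0.278). None of these passed. When KO replicate 1 was left out Psmd2 and Psmd8 passed, and when KO replicate 2 was left out Psmd2, Psmd8 and Psmg3 did, by which 2 and 3 member regions would be called, beside 8.02% and 24.1% of all 9603 regions; in these fits the lone KO sample is assumed to vary like the other groups. In winscore no member region passed without KO replicate 1 (3.71% of all regions called), and Psmd2 passed without KO replicate 2 (13.0%).

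**Figure D4:**
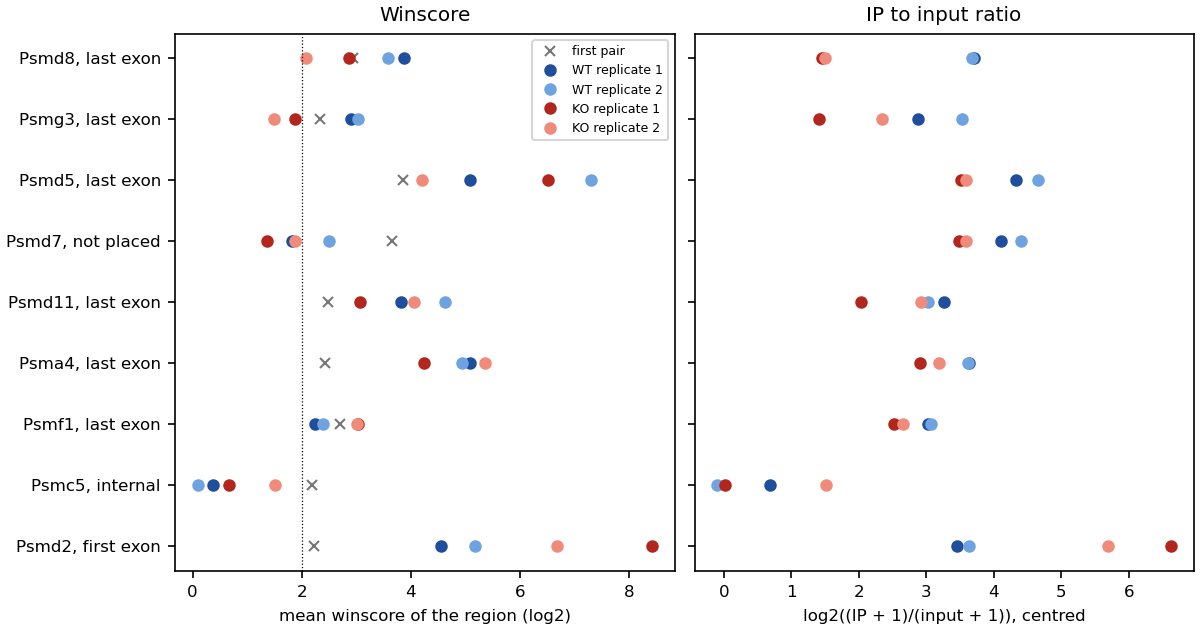
Mean winscore (left, log2) and centred log2 ratio of IP to input (right) of the 9 member regions of the first IP (y axis, gene and place); crosses are the first IP, dots the WT (blue) and KO (red) replicates, and the dotted line is the winscore limit of 2. The first exon of Psmd2 has both KO dots to the right of both WT dots in each panel, and Psmd8 and Psmg3 have theirs to the left.

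Because Psmd2 and Psmd8 differed in opposite directions at opposite ends of the gene, the IP to input ratio was also taken over the whole first and the whole last exon, with no choice of windows; this measure was added after the data were seen and needs a known strand and a mean input coverage of at least 1 in that exon. Over first exons 30 of 36 members (83.3%) were higher in KO, with a median difference of 0.54, against 63.3% of 4946 genes and a median of 0.29. Over last exons 27 of 39 members (69.2%) were lower in KO, with a median of −0.29, against 77.6% of 8021 genes and a median of −0.36. Within a gene the first exon's difference exceeded the last exon's in 27 of 36 members (75.0%) and in 74.7% of all genes. No exon of a member passed limma's test, nor did any of the 4946 first or 8021 last exons (0% called); unadjusted p values were under 0.05 for 3 and 10 members and for 410 and 1567 genes. Without KO replicate 2, last exons of 8 members and 13.8% of all last exons were called, and first exons of no member and 0.849% of all.

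The largest first exon difference was in Psma5, an alpha subunit. Its first exon had IP coverage of 24.5 and 37.7 in WT against 202 and 184 in KO. Input coverage was 24.6 and 25.3 in WT against 19.3 and 28.9 in KO. This exon had only 1.40 in the first IP and 0.922 in the first input, where the whole gene was also low, at 3.92. The ratio was higher in KO by 2.63 (SE 0.60, limma adjusted p = 0.575), with no overlap of the IP values. Psmd2 was next at 2.31 (SE 0.52), and Psmf1 at 2.04 (SE 0.59), where IP coverage was 1.17 and 0.876 in WT against 8.07 and 10.1 in KO. The highest first exon values thus lay in an alpha subunit, a base scaffold and the inhibitor. Psmc6 and Psma2 went the other way, at −0.89 and −0.87.

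Over last exons the lowest difference was again in Psmd8, at −1.74 (SE 0.26, limma adjusted p = 0.181). Psmb10, the inducible trypsin-like subunit, was at −1.59 (SE 0.40), with IP coverage of 9.29 and 15.3 in WT against 3.91 and 5.20 in KO. Psmb5 was at −1.29 (SE 0.43), with IP coverage of 50.9 and 46.5 in WT against 18.4 and 13.4 in KO. The last exon of Psmb5 was thus lower in KO in IP signal relative to input, a difference that did not pass, and its first exon was at 0.31 (SE 0.60). Psme2, at 2.03, and Psmd6, at 1.89, had the highest differences, on IP coverage of at most 20.3. Without WT replicate 1 the median over members' last exons was 0.042, so its sign rests on that library.

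**Figure D5:**
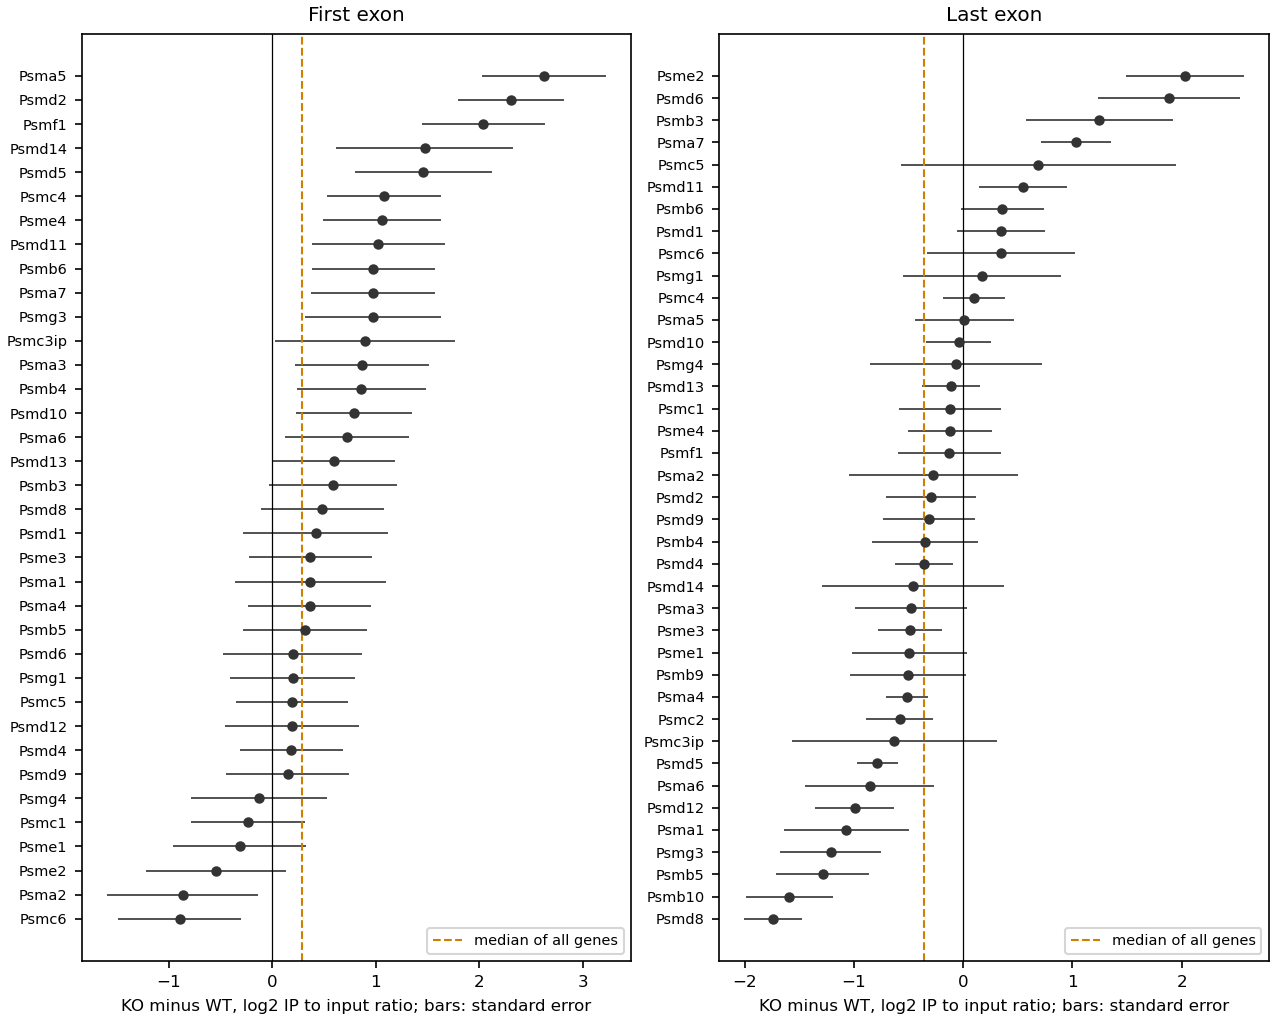
KO minus WT difference of the log2 IP to input ratio (x axis) over the first exon of 36 members (left) and the last exon of 39 members (right), sorted by size; dots are limma estimates from 2 WT and 2 KO pairs, bars their standard errors, and the dashed line the median of all genes. First exons lie mostly right of 0, led by Psma5 at 2.63, and last exons mostly left of 0, down to Psmd8 at −1.74.

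Several members without a region in the first IP had strong last exon signal in the later IPs. Psmd4, the ubiquitin receptor of the base, had winscores of 1.46 in the first IP, 4.68 and 5.18 in WT against 4.81 and 3.94 in KO, with mean IP coverage of 662 and 697 in WT against 691 and 467 in KO. Psme3 had a last exon region with IP coverage of 309 and 284 in WT against 139 and 120 in KO and winscores of 4.06 and 3.80 against 2.20 and 1.78. Psma1 had one with IP coverage of 160 and 101.3 in WT against 46.8 and 72.8 in KO. Its winscores overlapped, at 2.93 and 4.27 in WT against 2.28 and 3.77 in KO. Psme3 and Psma1, whose transcripts rose in KO, thus had lower IP coverage in these last exon regions in both KO libraries. Another last exon region of Psme3 overlapped, at 56.4 and 108 in WT against 155 and 76.2 in KO. Their first exon regions had higher IP coverage in both KO libraries. Psma1 had 8.37 and 20.4 in WT against 25.5 and 24.6 in KO, and Psme3 33.8 and 28.0 against 46.1 and 71.3. These regions were chosen on the WT IPs, which favours a higher WT value, and are given without a test.

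Psmd10, another gene that rose, had signal at both ends. Its first exon had IP coverage of 29.7 and 27.1 in WT against 67.1 and 59.4 in KO, and its last exon region had 38.7 and 34.5 in WT against 33.0 and 38.9 in KO. Psmc6, which fell, had a first exon region with IP coverage of 110.4 and 53.7 in WT against 41.7 and 50.3 in KO. Over whole last exons, the ratio differences of the genes that rose were −1.07 (Psma1), −0.99 (Psmd12), −0.48 (Psme3) and −0.041 (Psmd10). Those of the genes that fell were −1.29 (Psmb5), 0.35 (Psmc6) and 1.89 (Psmd6). None of these passed, and 77.6% of all genes were lower in KO over the last exon. A link between transcript level and IP signal was not tested.

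The other genes of the pathway were read from a list of ubiquitin donors, receptors, unfolding and deubiquitinating factors and regulators of proteasome genes. All 34 found were expressed, 3 rose and 3 fell in KO, against 26.6% of all genes called, and their median difference was −0.053. Ubqln2, a shuttle receptor, rose by 0.48 (9.58 and 10.6 in WT, 15.3 and 13.6 in KO; limma adjusted p = 0.00216). AI314180, the gene of the proteasome adaptor Ecm29, rose by 0.39, from 2.68 and 2.76 in WT to 3.90 and 3.85 in KO (limma adjusted p = 0.00414). Shfm1, a small lid subunit outside the Psm names, rose by 0.27, from 75.1 and 76.9 to 90.9 and 93.0 (limma adjusted p = 0.0132).

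Among those that fell, Adrm1, another ubiquitin receptor of the base, had 22.1 and 22.3 in WT against 19.4 and 18.1 in KO, a fall of 0.23 (limma adjusted p = 0.0278). The protease Ddi2 and the deglycosylase Ngly1, both known to process the proteasome gene activator Nfe2l1, also fell. Ddi2 had 11.0 and 10.6 in WT against 8.68 and 8.19 in KO, a fall of 0.32 (limma adjusted p = 0.00734), and Ngly1 had 1.80 and 1.63 against 0.866 and 1.13, a fall of 0.44 (limma adjusted p = 0.00790). Without KO replicate 1, 10 of the list were called, with 28.0% of all genes called in the same fit.

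On this list 16 of 34 genes (47.1%) carried 28 regions in the first IP, against 54.3% of expressed genes, and its genes had a median of 69 windows. Carriers included both activators of proteasome genes. Nfe2l1 had 3 regions, the highest with winscores of 4.61 in the first IP, 4.32 and 4.04 in WT against 4.92 and 4.30 in KO. Nfe2l2 had 2, both in the last exon, the higher at 3.29 in the first IP, 2.52 and 2.25 in WT against 3.65 and 3.07 in KO. Ddi2 and Ube3a had 3 regions each, Ubqln2, Ubqln4, Usp5, Uba1 and Zfand2a had 2 each, and Bag6, Nub1, Stub1, Uba6, Ube3c, Usp14 and Zfand5 had 1 each. By IP to input ratio 18 of 27 of these regions were lower in KO, against 77.8% of all 9603 regions, and none passed.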

How the data were processed

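Per the submitters' processing notes, alignment of the 10 libraries used TopHat 1.1.3 and the build was mm9. Per the file headers, each deposited window file holds the coverage signal of an IP and its input, their gene medians and a log2 winscore for every exon window. The log2 winscore was checked by recomputing it from the deposited coverage in 1510223 windows (largest difference allowed 5e-14). The authors also deposited RPKM values per gene, and how these were scaled is not stated. The first file is headed as unique, and the rule for reads with several positions is otherwise not given in the sources used here. Coverage was scaled by the authors with factors that are not stated, and depth was read from its smallest step with the first input or first IP set to 1. No read counts were derived, so no counting intervals are given.

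Members, roles and lists were chosen with earlier results of these data known. Levels were log2(coverage + 1) in genes with coverage of at least 1 in at least 2 inputs, a scale that understates the change of low genes. Regions were compared by mean winscore and by log2((IP + 1)/(input + 1)) minus the library median outside regions, where mean input coverage was at least 1. Tests used limma 3.58.1 in R 4.3.3 (trended eBayes on lmFit, adjustment by Benjamini-Hochberg, threshold 0.05), tested on simulated data, with 2 libraries per group. Python 3.11.15, numpy 2.4.6, pandas 2.3.3 and matplotlib 3.10.9 did the rest. Values in every library are given for members with a region, members past the transcript test and the highest and lowest of each role; partners are named where they passed or had a region. The Psma3 and Psma5 gap, the extra regions of Psmd7, Psmd4, Psme3, Psma1, Psmd10 and Psmc6, and the exon values were chosen after they were seen. Names, strands, overlaps and promoters came from RefSeq GRCm38.p6 tables; all 47 names matched a current symbol. Of the members 13 overlap another RefSeq gene, and since strand-specific counting is not stated, their shared signal cannot be told apart. Alternatives changed the region limit, run length and map, pseudocount, filter, centring, level measure, replicate block and libraries used.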

Additional observations from a re-analysis of the deposited data

How the results depend on the processing

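The number of members with a region was 35 at a winscore limit of 1 (79.3% of expressed genes) and 3 at a limit of 3 (35.9%). It was 18 with single windows (59.5%), 5 with runs of at least 3 windows (46.8%) and 32 in the map of the WT IPs (82.9%). The number as reported was 9 (54.3%). The number of members changed in transcript level was 1 with no coverage filter, 3 with median coverage and 33 with the RPKM values, against 7; leaving out 1 library gave 3 to 10. Over all genes 2977 of 11211 were called (26.6%). With no filter 762 of 21812 were called (3.49%), and with coverage of at least 5 it was 1930 of 6309 (30.6%). With median coverage 1232 of 10532 were called (11.7%), and with RPKM 7965 of 12245 (65.0%). With coverage of at least 5, 8 of 41 members were called. The shares of all genes in fits without 1 library are given above. Psmc6 was lost when libraries were centred on their medians. The partner list gave 4 to 10 calls against 6 with 1 library left out, member regions 0 to 1 in winscore (Psmd2, without KO replicate 2) and 0 to 3 in ratio, first exons 0 and last exons 0 to 8 (all 8 without KO replicate 2, when 1104 of all 8021 last exons and 42 of 4946 first exons were called). Over all regions, leaving out KO replicate 1 or 2 gave 378 or 1321 calls in winscore and 770 or 2318 in ratio, against 0.

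Directions turned in a few cases. With the RPKM values Psma1 was at −1.55 and Psmd12 at −0.25. In winscore, Psmd5 ranged from −1.99 to 0.32 as single libraries were left out (0.27 without WT replicate 2), and Psma4 from −0.78 to 0.36, with 0.011 for its highest window. The ratio of Psmc5 ranged from −0.28, without KO replicate 2, to 1.22. The causes were not tested, other than that fits without a library hold fewer samples.

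Samples with the same replicate number did not deviate together, with correlations of −0.027, 0.025 and 0.011, and the numbers were not taken as pairs. With the replicate number as a block (replicate block) the same 7 members were called in transcript level, beside 24.4% of all genes. In that setting 0 member regions were called in either measure, and 65 of all regions (0.638%) in winscore. The part of IP depth and of having 2 samples a group in the calls was not tested.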
